A study of Mus musculus with 157 samples.

Results

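The genes that copy DNA in S phase were followed in mouse E14 embryonic stem cells during the first 72 h of retinoic acid (RA). The set holds 43 named genes, from the origin recognition complex to the chromatin assembly factor, picked by symbol. Each gene was taken as the transcript with the highest mean read count. All 43 were in each of the 4 tables analysed, which list 33687 to 33985 transcripts, and all 43 passed the filter on low counts in each table. The cells had no RA (0 h) or 2, 4, 6, 24, 48 or 72 h of 1 µM RA. They are the wild-type line E14, kept on gelatin with fetal bovine serum and leukemia inhibitory factor. Nothing in the labels says that the libraries of a time came from separate cultures, and the spread behind each p-value may therefore be only technical. RNA polymerase II (Pol II) was mapped by chromatin immunoprecipitation and sequencing (ChIP-seq) in 53 libraries, with an antibody to its N-terminal domain (NTD, total Pol II) and antibodies to its C-terminal repeat phosphorylated on serine 5 (Ser5p) or serine 2 (Ser2p). NTD has 2 libraries at 0, 2, 24 and 72 h and 3 at 4, 6 and 48 h. Ser5p and Ser2p have 3 at 2 h and otherwise the same numbers. For NTD and Ser5p, reads were counted in windows reaching 1 kb up and downstream of the transcription start site (TSS). For NTD and Ser2p, they were counted over gene bodies.

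DNA replication is licensed when the origin recognition complex, Cdc6 and Cdt1 load the ring of Mcm2 to Mcm7 onto DNA, and it starts when Cdc45 and the GINS complex turn that ring into an active helicase. The primase, the polymerases, the sliding clamp Pcna with its loader and the single-strand binding protein RPA then copy both strands, and flap removal, ligation and nucleosome assembly follow. Many of these genes are transcribed in late G1 and S phase under the E2F factors, and mouse embryonic stem cells, whose G1 is short, are known for high and steady levels of them.

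Library totals ran from 1088159 to 3210580 reads for NTD and from 1504737 to 3347830 for Ser5p at the TSS, and from 11684907 to 25696364 for NTD and from 18045745 to 28745658 for Ser2p over gene bodies. Levels are CPM, read counts set to a common library total after TMM scaling. The ± sign gives the SD over libraries for a CPM and the standard error for a log2 change. Such levels are relative to the other transcripts, and a signal shared by all transcripts would not show. A gene was called when its adjusted p in edgeR's quasi-likelihood test, fitted on the whole table, was under 0.05, and "rose" and "fell" are used of called genes. Most calls depend on the settings, as 6 of the 70 calls over all comparisons were kept in every alternative tried. The summed level of 7 stem cell markers at the TSS (NTD) was 531.7 to 736.2 CPM at 0 h, 413.4 to 631.7 at 6 h, 332.8 to 482.1 at 24 h, 176 to 235.7 at 48 h and 203.7 to 280.0 at 72 h, with none at a count of 0. Among the NTD libraries, 0 h replicate 4 and 72 h replicate 3 stood apart at Mcm3, and results that rest on them are given without them too. Over the body of Rfc4 they were also the highest, at 84.9 and 91.6 CPM. In bulk chromatin, fewer cells in S phase and less Pol II per cell cannot be told apart.

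Promoter sequence was read from the RefSeq table of GRCm38.p6, from 250 bases before to 50 after the start, which holds 35 of the 43 genes. An E2F-type word (TTTCCCGC, TTTCGCGC, TTTGCCGC or TTTGGCGC, on either strand) stood in 13 of the 35 (37.1%), against 2.6% of all 27025 genes in the table, counted in the same way. The 13 were Cdc6, Cdt1, Gins3, Lig1, Mcm3, Mcm5, Mcm6, Mcm7, Orc1, Pola1, Pold1, Pole2 and Rfc3. The word CCAAT, the core of NF-Y sites, stood on either strand in 23 of 35 (65.7%, against 41.1% of all genes), and TTTGAA, the CHR type of word known from mitotic genes, in 5 of 35 (14.3%, against 20.2%). A match is a description of letters and not a bound site. Of the 5 ring subunits in the table (all but Mcm4), 4 carry such words, and the stretches below show those that lie before the start in Mcm5, Mcm6 and Mcm7. In Mcm5 and the upstream Mcm6 stretch a match on one strand overlaps a match on the other. Capitals mark the E2F-type words in chr8:75109340-75109383 (plus strand), chr1:128359788-128359831, chr1:128359729-128359768 and chr5:138172025-138172064 (minus strand).
Mcm5: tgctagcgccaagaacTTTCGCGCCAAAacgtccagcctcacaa
Mcm6 (upstream): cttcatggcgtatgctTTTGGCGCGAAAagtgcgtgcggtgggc
Mcm6 (near the start): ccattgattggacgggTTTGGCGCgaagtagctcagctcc
Mcm7: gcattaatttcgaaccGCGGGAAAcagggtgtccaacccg

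Promoters follow for Rpa1 and Mcm10, the genes with the most calls over all tables and times (12 and 8). Cdc45 is added, as Ser5p was called higher at its start at 48 and 72 h, in a window it largely shares with Ufd1. CCAAT on either strand is in capitals. Rpa1 lies at chr11:75348334-75348633, Cdc45 at chr16:18811923-18812222 and Mcm10 at chr2:5012742-5013041, all on the minus strand and written along the gene. None of the 3 holds a whole E2F-type word. Mcm10 ends in TTTGGCG at the edge of the window, so that a TTTGGCGC running past the edge would not have been counted.
Rpa1: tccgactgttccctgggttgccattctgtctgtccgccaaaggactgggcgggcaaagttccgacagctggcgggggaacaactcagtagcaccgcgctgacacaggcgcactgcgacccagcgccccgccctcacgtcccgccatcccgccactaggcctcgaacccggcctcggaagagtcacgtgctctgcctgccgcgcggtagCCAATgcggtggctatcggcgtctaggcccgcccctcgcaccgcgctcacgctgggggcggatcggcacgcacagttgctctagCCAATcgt
Cdc45: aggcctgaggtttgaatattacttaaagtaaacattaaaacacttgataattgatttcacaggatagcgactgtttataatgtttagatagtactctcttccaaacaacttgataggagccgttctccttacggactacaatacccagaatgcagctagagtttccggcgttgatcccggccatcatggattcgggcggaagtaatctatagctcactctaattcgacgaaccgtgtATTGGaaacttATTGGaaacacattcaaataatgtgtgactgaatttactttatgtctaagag
Mcm10: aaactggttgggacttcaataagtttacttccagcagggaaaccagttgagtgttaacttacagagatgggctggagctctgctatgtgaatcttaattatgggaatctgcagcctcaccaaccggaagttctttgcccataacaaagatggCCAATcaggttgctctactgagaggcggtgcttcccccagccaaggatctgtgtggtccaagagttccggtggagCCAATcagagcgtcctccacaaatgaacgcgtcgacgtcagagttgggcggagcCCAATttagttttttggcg

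As all TSS windows are of 1 size, levels there can be set against each other, though some windows also hold a neighbouring gene's start. Such a start was found close to 10 genes, as Ap4m1 to Mcm7 (138 bases) and Umad1 to Rpa3 (147 bases). All of them are among the 35 genes with a promoter sequence. Whether the genes without one, such as Mcm4 and Pole, have a close neighbour is not known here. At 0 h total Pol II was highest at Mcm7 (194 ± 4.28 CPM, n = 2) and Pcna (184 ± 14.8 CPM) and lowest at Rpa3 (16.8 ± 6.19 CPM) and Gins2 (18.4 ± 3.99 CPM). The ranges of the highest pair met (191 and 197 CPM for Mcm7, 173 and 194 CPM for Pcna), as did those of the lowest pair. Per length of gene body, in the authors' deposited FPKM (fragments per gene length and library size), the order at 0 h again opened with Pcna (8.56 ± 1.35, SD) and Mcm7 (8.31 ± 0.956) and closed with Prim2 (0.815 ± 0.0133) and Pola1 (0.776 ± 0.0923), n = 2 libraries each. Rfc4 (5.61 and 8.63) overlapped the top pair through 0 h replicate 4 alone. In 0 h replicate 1 it had 5.61, below Pcna (7.60) and Mcm7 (7.63). The genes at both ends differ in length, with 3895 and 7529 bases for Pcna and Mcm7 and 216001 and 327622 for Prim2 and Pola1. The part of length in this order was not tested. Pcna and Mcm7 encode the clamp and a helicase subunit, and Pola1 and Prim2 encode subunits of the polymerase and primase that lay primers.

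Summed over the set, total Pol II was lower at 48 h than at 6 h. At the TSS, the summed NTD level of the 43 genes at 48 h was 2269, 2657 and 2233 CPM, against 2842, 3379 and 2971 CPM at 6 h, and 0 h libraries held 2474 and 2901 CPM. Over gene bodies the NTD sums at 48 h were 1120, 1411 and 1137 CPM, against 1427, 1634 and 1492 CPM at 6 h, with 1300.0 and 1439 CPM at 0 h. The 48 h sums lay below every 6 h sum in both NTD tables, while they overlapped those of 0 h in both. The 6 h sums overlapped those of 0 h too. Over bodies 48 h replicate 2 (1411 CPM) lay only just under 6 h replicate 1 (1427 CPM). At the TSS, 48 h replicates 1 and 3 (2269 and 2233 CPM) were small libraries, of 1394294 and 1088159 reads, against 2739277 for replicate 2. The part of library depth in these sums was not tested.

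**Figure D1:**
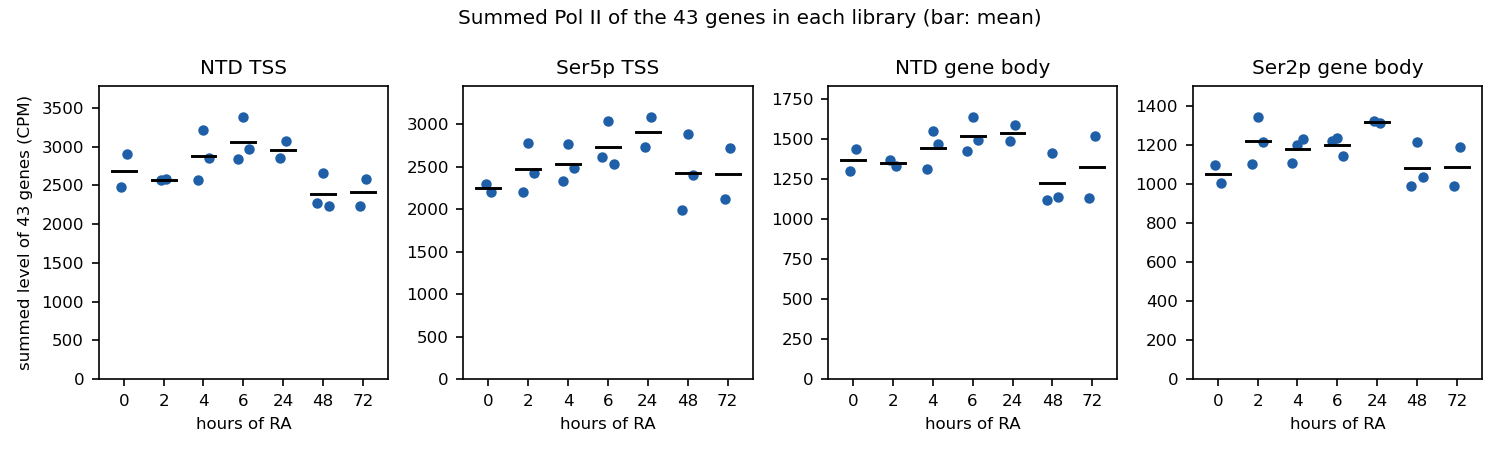
Summed level in CPM of the 43 genes (vertical axis, from 0) in each library (points) against hours of RA, with the mean of each time as a bar, for NTD and Ser5p at the TSS and NTD and Ser2p over gene bodies. Sums of NTD at 48 h lie below those at 6 h, as 2269 and 2233 CPM against 2842 and 3379 CPM in the libraries numbered 1 and 3 at the TSS.

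Early in treatment, Rpa1 was the gene that rose. At the TSS (NTD), 1, 2, 1 and 1 of the 43 genes were called at 2, 4, 6 and 24 h against 0 h, where 0.320, 0.709, 0.725 and 1.52% of all transcripts were. Rpa1 was higher each time, and the other call at 4 h was Mcm3, which was lower. For Ser5p, 0, 0, 1 and 1 were called, where 0.0305, 0.0153, 0.0549 and 6.73% of transcripts were. Over gene bodies (NTD) 0, 0, 1 and 1 were called, where 0, 0.0188, 0.0691 and 0.270% of transcripts were. The calls at 6 and 24 h in the last 2 tables were Rpa1. Without a call, edgeR gave an unadjusted p under 0.05 for 1 and 2 genes (Ser5p) and 1 and 1 gene (NTD body) at 2 and 4 h, all higher, where 3.23 and 3.04% (Ser5p) and 0.980 and 2.70% (NTD body) of all transcripts were higher. DESeq2 called 1 gene each at 2 and 4 h for Ser5p and 0 and 1 over bodies.

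Ser2p over gene bodies had positive changes for most of the set before any single gene was called. None of the 43 was called at 2, 4 or 6 h by edgeR, where 0% of all transcripts was called at each time. Of the 43, 13, 9 and 11 genes were higher and 0, 0 and 1 lower at an unadjusted p under 0.05, against 9.68, 5.16 and 7.00% higher and 3.91, 4.11 and 6.77% lower over all transcripts. DESeq2 called 2, 1 and 1. The median log2 change of the 43 was 0.27, 0.22 and 0.23, against -0.01, 0.00 and 0.00 over all transcripts, and 39, 40 and 38 of the 43 were positive. Over all transcripts 52.5, 50.8 and 50.4% were negative. The 0 h libraries differed, with summed Ser2p levels of 1098 and 1005 CPM for replicates 1 and 4. The lowest sums at 2, 4 and 6 h were 1102, 1108 and 1142 CPM, only just above that of 0 h replicate 1. At 24 h, 9 of the 43 rose (20.9%, against 9.02% of all transcripts): Mcm7, Cdc6, Cdc45, Gins2, Pcna, Pole, Rpa1, Chaf1a and Gmnn. The median at 24 h was 0.37, against -0.02 over all transcripts, and 39 of 43 were positive, where 51.5% of all transcripts were negative. The housekeeping genes measured beside them had a median of 0.86, with 3 of 10 higher, at the same time. The 24 h libraries carry replicate numbers 2 and 3 and those of 0 h numbers 1 and 4. Leaving out 1 library left 0 to 3 calls in place of 9, with 0 left without 0 h replicate 4 or 24 h replicate 3.

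By 48 and 72 h against 0 h, calls at the TSS had turned to losses. For NTD, 8 of 43 fell at 48 h (18.6%, against 4.92% of all transcripts) and 5 at 72 h (11.6%, against 3.47%), and 1 rose at 72 h (where 5.66% of transcripts did). Those that fell at 48 h were Mcm2, Mcm3, Mcm6, Mcm10, Orc2, Rfc1, Pold1 and Rpa2. At 72 h they were Mcm10, Orc2, Rfc1, Pold2 and Rpa2, while Cdc45 rose at 72 h. Ser5p gave 2 calls at each time (12.2 and 8.97% of transcripts were called), a fall of Mcm10 and a rise of Cdc45 both times. Gene bodies gave none at either time, for NTD (3.75 and 4.52% of transcripts called) or for Ser2p (1.76 and 1.62%). At an unadjusted p under 0.05 edgeR had 10 and 2 genes lower for NTD bodies at 48 and 72 h, where 7.75 and 7.39% of all transcripts were lower, and none higher, where 8.02 and 11.6% were. The 2 genes at 72 h are thus a smaller share than that of all transcripts. For Ser2p it had 6 and 3 higher, where 10.1 and 10.8% of all transcripts were, and 2 and 1 lower, where 7.24 and 7.51% were. DESeq2 called 3 and 0 for NTD and 0 and 0 for Ser2p.

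Falls against 0 h rest on few libraries and on the scaling. With the authors' scale factors, which move the median of all transcripts to 0.20 at 48 h, the NTD TSS count was 1 at 48 h and 0 at 72 h. The median of the 43 at 48 h was -0.12 with TMM and 0.11 with those factors, below that of all transcripts both times. The 8 falls at 48 h numbered 1 without 0 h replicate 4, 3 without 48 h replicate 1 and 4 without 0 h replicate 1 or 48 h replicate 3. The 5 falls at 72 h numbered 1 without 0 h replicate 4 or 72 h replicate 1, 2 without 72 h replicate 3 and 3 without 0 h replicate 1.

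Against 6 h, more of the genes were called at 48 h. For NTD at the TSS, 13 of 43 fell (30.2%, against 6.52% of all transcripts). Over gene bodies 10 of 43 fell (23.3%, against 6.00%). Ser5p gave 2 falls (4.65%, against 3.21%) and Ser2p 3 (6.98%, against 3.01%), and none of the 43 rose in the 4 tables. The median log2 change of the 43 was -0.39 at the TSS and -0.25 over bodies (NTD), against 0.00 and 0.03 over all transcripts. Of the 43, 35 and 40 were negative, against 49.7 and 45.5% of all transcripts. Falls in both NTD tables were called for Mcm2, Mcm10, Orc2, Pold1, Rpa1, Rpa2 and Tyms. With the authors' scale factors the median at the TSS stayed at -0.40, but 1 of the 13 calls was left, Mcm10. Over bodies 5 genes were called without 6 h replicate 3 or 4 or without 48 h replicate 1 or 3, and 18 without 48 h replicate 2. From 48 to 72 h, 1 of 43 was called at the TSS for NTD (0.543% of transcripts), Mcm3, and none for Ser5p (0.0153%), NTD bodies (0.00314%) or Ser2p (0%). In those 3, edgeR gave 1 gene lower (2.20% of all transcripts), 1 higher (3.83%) and 0 (1.51% higher and 1.54% lower) at an unadjusted p under 0.05, and DESeq2 called 0 in each.

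**Figure D2:**
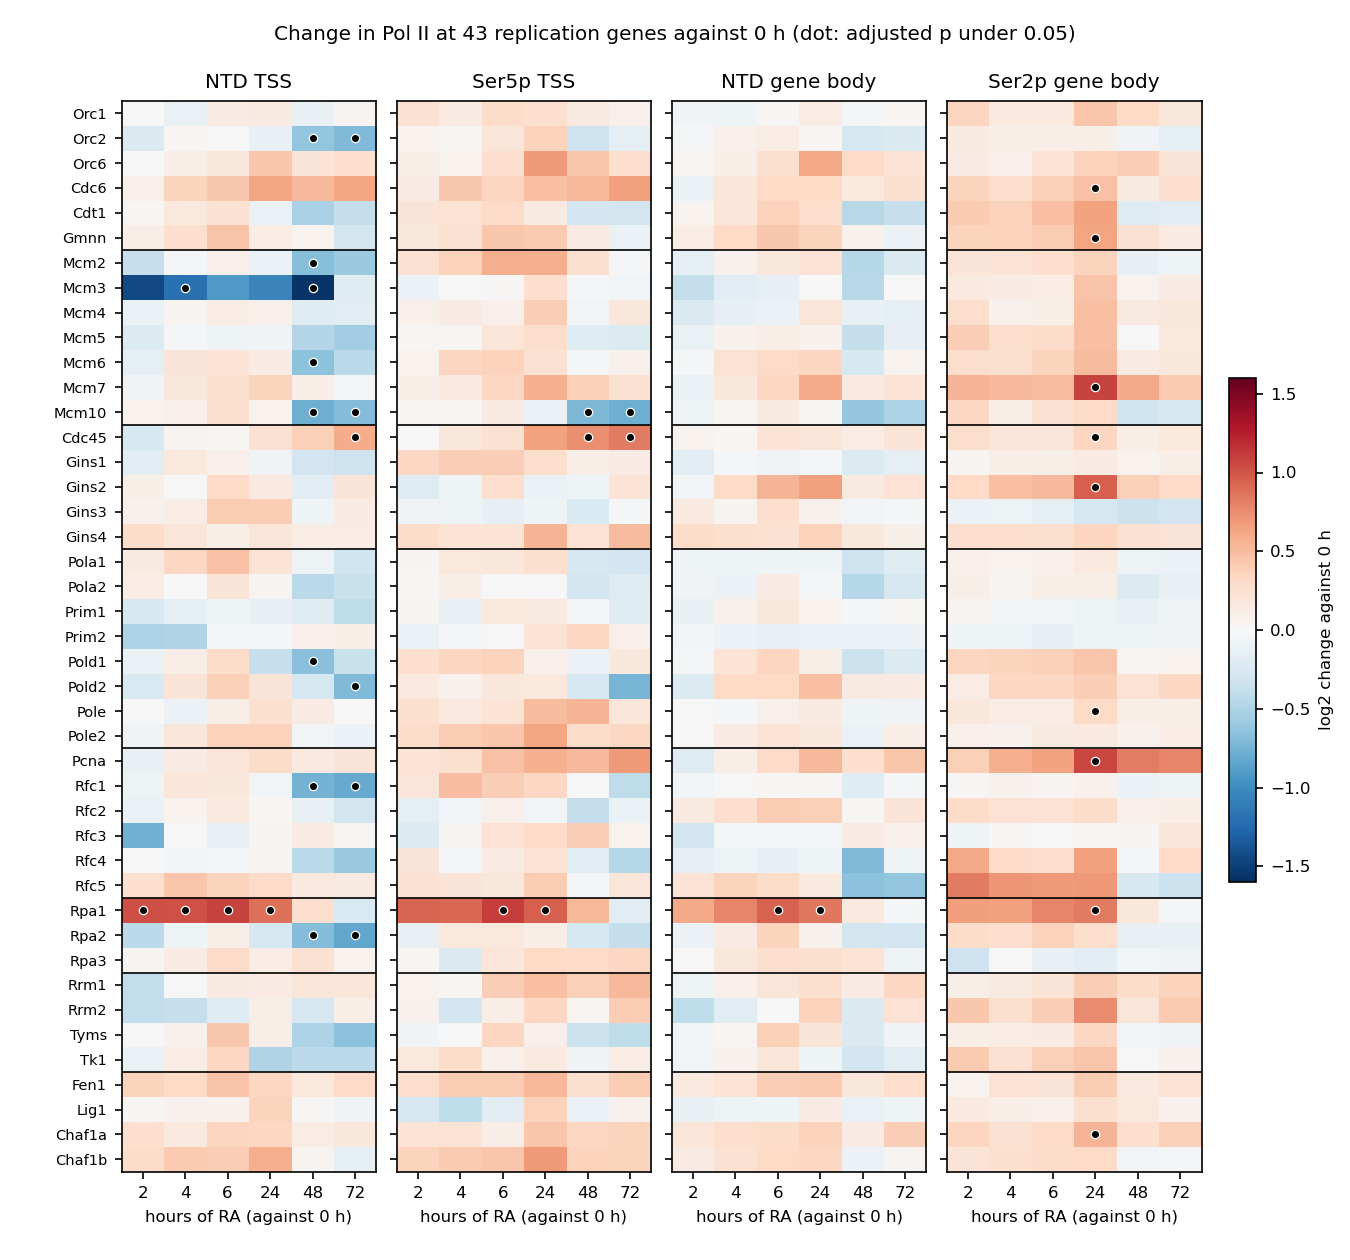
Log2 change against 0 h (colour, red higher and blue lower, from -1.6 to 1.6) of the 43 genes, grouped from licensing at the top to ligation and chromatin assembly at the bottom, at 2 to 72 h (columns) in the 4 tables. Black dots mark an adjusted p under 0.05, and they show Rpa1 from 2 to 24 h, the Ser2p calls at 24 h and the falls at 48 and 72 h at the TSS.

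Among the licensing genes, Cdt1 and Orc2 lost total Pol II at the TSS between 6 and 48 h, and Orc1, Orc6, Cdc6 and Gmnn were not called there. Cdt1, which brings the MCM ring to origins, had 116 and 115 CPM at 0 h, 115 and 119.5 at 2 h, 98.3, 159.5 and 132 at 4 h, with 128, 154 and 128 at 6 h. Cdt1 then had 114 and 100 CPM at 24 h, 64.6, 91.9 and 83.7 at 48 h, with 71.2 and 103 at 72 h. Its 48 h libraries lay below all 6 h libraries, and it fell by 0.76 on the log2 scale (SE 0.18, edgeR adjusted p = 0.00361). Orc2, a subunit of the origin recognition complex, had 54.6, 62.6 and 46.6 CPM at 48 h, against 76.4, 76.4 and 103 CPM at 6 h, a log2 change of -0.63 ± 0.18 (edgeR adjusted p = 0.0139), but its transcript with the lowest mean count gave 0.22. The start of Orc2 lies 6 bases from that of Gm15834 on the opposite strand. Over its body Orc2 changed by -0.40 ± 0.09 (edgeR adjusted p = 0.0129), a small step seen against a narrow spread.

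Orc1, the subunit whose level follows the cell cycle, had 65.8 and 101 CPM at 0 h, 87.5 and 80.2 at 2 h, 68.9, 89.5 and 76.6 at 4 h, with 80.4, 100.3 and 94.4 at 6 h. Orc1 then had 92.6 and 93.6 CPM at 24 h, 78.0, 78.4 and 75.1 at 48 h, with 84.0 and 88.9 at 72 h. The 48 h libraries lay between the 0 h libraries and below those of 6, 24 and 72 h, and the change at 48 h against 0 h was -0.12 ± 0.19 (edgeR adjusted p = 0.795). Cdc6, the loader of the ring, had 18.1 and 30.4 CPM at 0 h, 25.8 and 26.2 at 2 h, 26.5, 41.9 and 26.9 at 4 h, with 33.0, 32.1 and 34.6 at 6 h. Cdc6 then had 31.2 and 44.8 CPM at 24 h, 44.0, 34.7 and 26.8 at 48 h, with 28.2 and 45.8 at 72 h. Its highest values came at 24 to 72 h, yet the change at 72 h against 0 h (0.63 ± 0.26) did not pass (edgeR adjusted p = 0.135). Ser2p over the body of Cdc6 was 17.2 and 16.5 CPM at 24 h, against 12.4 and 11.9 CPM at 0 h, and rose by 0.47 ± 0.14 (edgeR adjusted p = 0.0438). Gmnn, the inhibitor of Cdt1, had 17.0 and 19.2 CPM of Ser2p at 24 h, against 12.3 and 11.1 CPM at 0 h, without overlap, and rose by 0.63 ± 0.17 (edgeR adjusted p = 0.0353).

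Calls differed among the 6 subunits of the MCM ring, though the differences between subunits were not tested. Mcm2 and Mcm6 fell at the TSS at 48 h against both 0 and 6 h, Mcm4, Mcm5 and Mcm7 were not called at any time at the TSS, and Mcm3 was called on the strength of single libraries. Mcm2 had 44.6 and 53.6 CPM at 0 h, 36.5 and 39.8 at 2 h, 43.4, 56.2 and 46.9 at 4 h, with 55.0, 58.0 and 44.2 at 6 h. Mcm2 then had 45.6 and 47.0 CPM at 24 h, 28.7, 35.8 and 25.0 at 48 h, with 33.6 and 31.8 at 72 h. Its 48 h libraries lay under every library of 0 to 24 h, with a log2 change of -0.76 ± 0.19 against 6 h (edgeR adjusted p = 0.00393) and -0.68 ± 0.20 against 0 h (0.0219), the second not called without 0 h replicate 4 (-0.51). Over its body it averaged 15.6 ± 3.54 CPM at 48 h and 24.5 ± 4.76 CPM at 6 h (n = 3 each), and fell by 0.64 (edgeR adjusted p = 0.0353).

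For Mcm6, whose promoter holds 3 E2F-type words in the 2 stretches shown, the levels were 108 and 132 CPM at 0 h, 114 and 101 at 2 h, 109.8, 177 and 130.4 at 4 h, with 121, 169 and 129 at 6 h. Mcm6 then had 128 and 135 CPM at 24 h, 72.0, 91.6 and 62.2 at 48 h, with 68.6 and 107 at 72 h. The 48 h values again stood apart from those of 0 to 24 h, with -0.87 ± 0.19 against 6 h (edgeR adjusted p = 0.00144) and -0.65 ± 0.21 against 0 h (0.0393), the second not called without 0 h replicate 4 (-0.47). Ser5p at Mcm6 was 71.7, 107 and 83.7 CPM at 48 h, against 94.5 and 84.2 CPM at 0 h, which overlap.

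Mcm3 had 25.4 and 102 CPM at 0 h, 24.6 and 23.1 at 2 h, 25.0, 33.9 and 26.9 at 4 h, with 34.7, 35.1 and 34.6 at 6 h. Mcm3 then had 28.5 and 33.8 CPM at 24 h, 24.0, 26.0 and 13.0 at 48 h, with 25.5 and 82.4 at 72 h. A single 0 h library (replicate 4, 102 CPM) and a single 72 h library (replicate 3, 82.4 CPM) stood far above the other 15, which lay between 13.0 and 35.1 CPM. The fall at 48 h against 0 h (-1.56 ± 0.32, edgeR adjusted p = 0.000521) became -0.18 without that 0 h library and was no longer called. The fall at 4 h (-1.19 ± 0.31) became 0.15, and the rise at 72 h against 48 h (1.38 ± 0.32) became 0.19 without that 72 h library. Ser5p at the same window was 20.1, 33.9 and 27.0 CPM at 48 h, against 26.4 and 29.3 CPM at 0 h, with no library apart.

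Mcm4, Mcm5 and Mcm7 gave no call at the TSS. Mcm4 had 91.7 and 105 CPM at 0 h, 82.1 and 101 at 2 h, 98.8, 110.2 and 96.0 at 4 h, with 97.8, 108 and 113 at 6 h. Mcm4 then had 84.9 and 122 CPM at 24 h, 85.3, 95.0 and 75.1 at 48 h, with 82.0 and 90.3 at 72 h. Mcm5 had 112 and 126 CPM at 0 h, 100.1 and 105 at 2 h, 101, 139 and 115 at 4 h, with 103, 141 and 95.6 at 6 h. Mcm5 then had 102 and 127 CPM at 24 h, 77.3, 91.6 and 88.1 at 48 h, with 71.2 and 89.2 at 72 h. Mcm7 had 191 and 197 CPM at 0 h, 189 and 185 at 2 h, 189.7, 271 and 201 at 4 h, with 195, 289 and 213 at 6 h. Mcm7 then had 207 and 289 CPM at 24 h, 179.9, 247 and 193 at 48 h, with 188 and 196 at 72 h. Their 48 h libraries overlapped those of 6 h for Mcm7 and not for Mcm4 and Mcm5, where the changes were -0.31 ± 0.17 and -0.39 ± 0.18 (edgeR adjusted p = 0.276 and 0.162). Ser2p over Mcm7 was 32.0 and 42.9 CPM at 24 h, against 19.8 and 15.7 CPM at 0 h, and rose by 1.08 ± 0.29 (edgeR adjusted p = 0.0342), the largest rise of the 9. The start of Mcm7 lies 138 bases from that of Ap4m1 on the opposite strand, and ChIP-seq does not tell such windows apart.

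**Figure D3:**
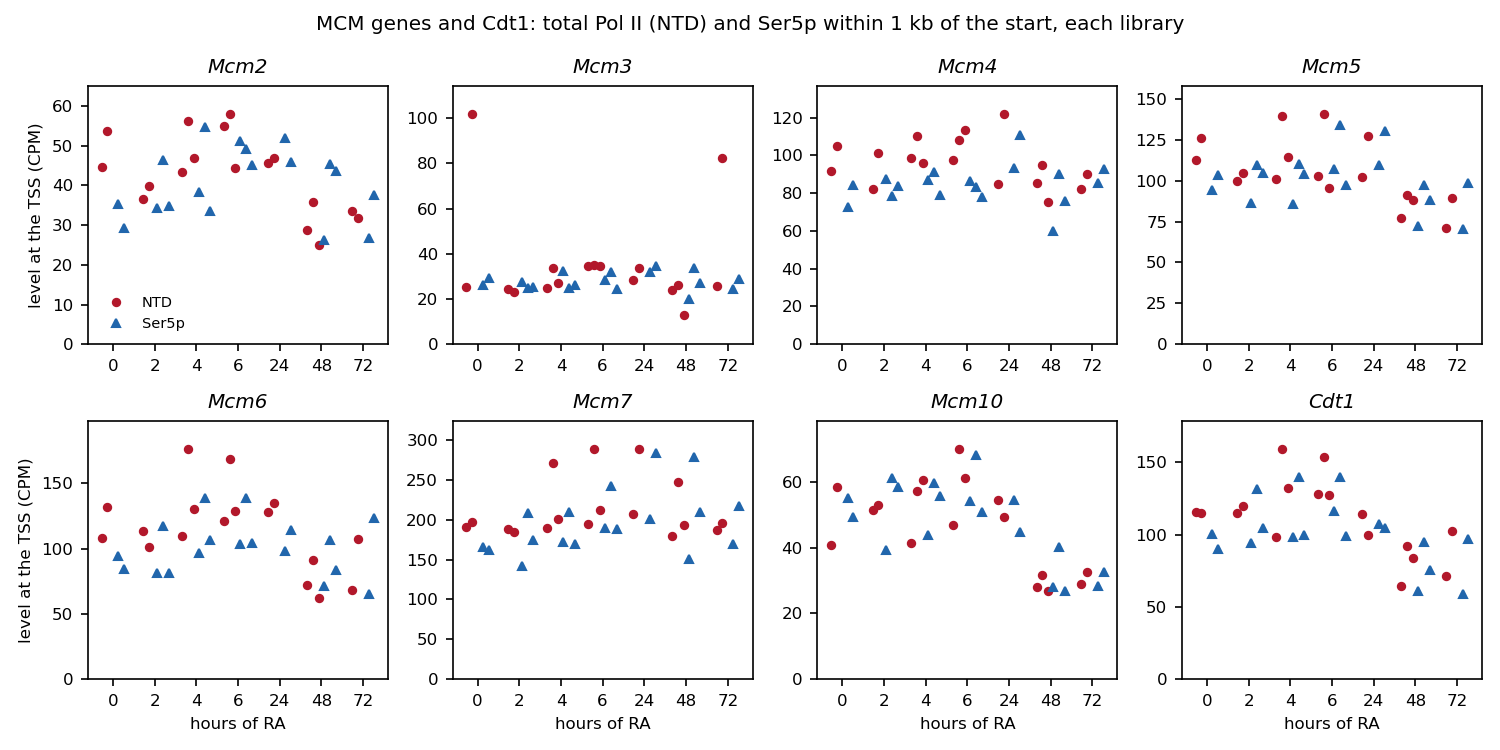
Level at the TSS in CPM (vertical axes, from 0) of Mcm2 to Mcm7, Mcm10 and Cdt1 in each NTD library (red circles) and each Ser5p library (blue triangles) against hours of RA. Mcm10 drops to 26.8 to 31.7 CPM (NTD) at 48 h, and Mcm3 shows single NTD libraries at 102 and 82.4 CPM.

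Mcm10, a firing factor outside the ring, had the most repeated loss of the set. At the TSS it had 40.9 and 58.4 CPM at 0 h, 51.5 and 52.9 at 2 h, 41.4, 57.4 and 60.8 at 4 h, with 46.9, 70.3 and 61.3 at 6 h. Mcm10 then had 54.7 and 49.5 CPM at 24 h, 28.0, 31.7 and 26.8 at 48 h, with 28.9 and 32.5 at 72 h. All 48 and 72 h libraries lay below all earlier ones, and it fell at 48 h by 1.03 against 6 h (SE 0.19, edgeR adjusted p = 0.000158) and by 0.78 against 0 h (0.0122). Ser5p fell to 28.0, 40.3 and 27.0 CPM at 48 h, against 54.4, 68.3 and 50.9 CPM at 6 h and 55.2 and 49.4 CPM at 0 h (-0.85 ± 0.20 against 6 h, edgeR adjusted p = 0.00401). The bodies followed, with 18.6, 24.3 and 20.5 CPM of NTD at 48 h, against 32.3, 38.5 and 37.4 CPM at 6 h (-0.77 ± 0.16, edgeR adjusted p = 0.00745). Ser2p was 17.1, 19.9 and 16.7 CPM at 48 h, against 25.9, 26.9 and 26.6 CPM at 6 h (-0.56 ± 0.12, adjusted p = 0.0102). The NTD falls against 6 h held in every setting tried, at the TSS and over the body. The call of the Ser5p fall against 6 h was lost under the authors' scale factors (-0.78), without 48 h replicate 3 (-0.73) or for the transcript with the lowest mean count (-0.53), and the Ser2p fall was not called without 48 h replicate 3 (-0.52). The NTD fall against 0 h at the TSS was not called without 0 h replicate 4 (-0.46).

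Of the genes that activate the helicase, Cdc45 was the one called higher at its start, in a window it largely shares with Ufd1. Cdc45 had 85.4 and 102 CPM of NTD at the TSS at 72 h, against 67.4 and 57.2 CPM at 0 h, and rose by 0.60 ± 0.20 (edgeR adjusted p = 0.0468), a call lost when 0 h replicate 4 (0.49) or 72 h replicate 3 (0.48) was left out. Ser5p was 71.1, 92.6 and 69.1 CPM at 48 h and 67.7 and 97.7 CPM at 72 h, against 48.7 and 44.0 CPM at 0 h, with no overlap. It rose by 0.74 ± 0.22 and 0.83 ± 0.24 (edgeR adjusted p = 0.0223 and 0.0219). Neither rise was called when a 0 h library was left out, nor at 48 h without 48 h replicate 2 (0.60) or at 72 h without 72 h replicate 3 (0.55). Over its body NTD was 28.2 and 36.1 CPM at 72 h, against 27.2 and 28.8 CPM at 0 h, a change of 0.20 ± 0.13 (edgeR adjusted p = 0.419).

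The start of Ufd1, which acts in the breakdown of ubiquitylated proteins, lies 322 bases from that of Cdc45 on the opposite strand, so that both TSS windows hold much of the same chromatin. Ser5p at Ufd1 also rose, by 0.66 ± 0.23 at 48 h and 0.77 ± 0.24 at 72 h (edgeR adjusted p = 0.0486 and 0.0376). NTD over its body was 21.2 and 21.0 CPM at 72 h, against 18.1 and 18.1 CPM at 0 h (0.22 ± 0.11, adjusted p = 0.314). Which of both genes carries the gain at the start cannot be told apart. Among the 4 GINS genes Gins2 alone was called, where Ser2p was 13.8 and 15.6 CPM at 24 h, against 8.01 and 7.12 CPM at 0 h, a rise of 0.96 ± 0.17 (edgeR adjusted p = 0.0116). Gins1, Gins3 and Gins4 had log2 changes of -0.39, -0.47 and 0.02 at the TSS at 48 h against 6 h.

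Among the polymerase genes, both measured subunits of polymerase delta fell at the TSS, and Pold1 alone over its body. Pold1, the catalytic subunit of polymerase delta, fell at the TSS to 26.0, 25.2 and 19.0 CPM at 48 h, against 53.2, 45.3 and 42.8 CPM at 6 h (-0.97 ± 0.20, edgeR adjusted p = 0.000469). Over its body Pold1 fell to 12.8, 15.4 and 10.3 CPM at 48 h, against 21.1, 22.2 and 19.3 CPM at 6 h (-0.69 ± 0.14, adjusted p = 0.00761). No library overlapped in either window. Pold2, its accessory subunit, had 41.3, 46.0 and 40.6 CPM at the TSS at 48 h and 29.6 and 34.2 CPM at 72 h, against 47.7 and 56.8 CPM at 0 h and 70.6, 67.7 and 66.6 CPM at 6 h. It fell at 48 h against 6 h (-0.67 ± 0.17, edgeR adjusted p = 0.00692) and at 72 h against 0 h (-0.70 ± 0.21, adjusted p = 0.0277, not called when either 0 h or either 72 h library was left out). Over its body Pold2 was not called, with 5.43, 8.87 and 5.65 CPM of NTD at 48 h, against 7.38, 8.18 and 7.22 CPM at 6 h, which overlap.

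Pola1 and Pola2 encode the catalytic and second subunit of polymerase alpha. Pola1 fell at the TSS to 32.0, 42.2 and 42.3 CPM at 48 h, against 57.3, 61.6 and 53.2 CPM at 6 h (-0.55 ± 0.18, edgeR adjusted p = 0.0354), and was -0.25 over its body (adjusted p = 0.0701). Pola2 fell over its body to 15.8, 21.0 and 17.5 CPM at 48 h, against 23.9, 28.6 and 29.2 CPM at 6 h (-0.59 ± 0.13, edgeR adjusted p = 0.00839), with -0.64 ± 0.22 at the TSS (adjusted p = 0.0515). The primase genes Prim1 and Prim2 were called nowhere, and Prim2 was 123, 116 and 117 CPM over its body at 48 h, against 114, 122 and 112 CPM at 6 h. Pole, the catalytic subunit of polymerase epsilon, was 125, 133 and 109 CPM at the TSS at 48 h, against 109.9, 122 and 128 CPM at 6 h, which overlap. Ser2p over Pole was 54.4 and 53.3 CPM at 24 h, against 44.6 and 42.0 CPM at 0 h, a rise of 0.32 ± 0.10 (edgeR adjusted p = 0.0471).

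The clamp gene Pcna was not called at the TSS, and its loader gave calls for Rfc1, Rfc2 and Rfc5. Pcna had 173 and 194 CPM at 0 h, 167 and 172 at 2 h, 169, 240.4 and 193 at 4 h, with 195, 250.5 and 184 at 6 h. Pcna then had 193 and 257 CPM at 24 h, 194, 218 and 202 at 48 h, with 180.1 and 241 at 72 h. The 2 h libraries lay just below those of 0 h, the 48 h libraries lay within the range of 6 h, and the change at 48 h against 6 h was -0.03 ± 0.18 (edgeR adjusted p = 0.951). Ser2p over Pcna was 11.5 and 16.3 CPM at 24 h, against 8.19 and 5.09 CPM at 0 h, and rose by 1.07 ± 0.33 (edgeR adjusted p = 0.0457).

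Rfc1, the large subunit of the loader, fell at the TSS to 44.0, 43 and 35.4 CPM at 48 h and 46.4 and 34.9 CPM at 72 h, against 73.6 and 66.4 CPM at 0 h and 85.0, 83 and 71.0 CPM at 6 h. The log2 change at 48 h was -0.95 ± 0.18 against 6 h and -0.76 ± 0.20 against 0 h (edgeR adjusted p = 0.000169 and 0.00684, the second not called without 0 h replicate 1, at -0.67). The fall of Rfc1 at 72 h was not called without both 0 h replicate 4 and 72 h replicate 3. Its body held 56.4, 54.0 and 52.0 CPM at 48 h, against 61.4 and 62.3 CPM at 0 h. Rfc5, a small subunit, was called over its body and not at its start, with 67.3, 75.4 and 60.4 CPM at the TSS at 48 h, against 83.3, 77.9 and 75.8 CPM at 6 h (-0.21, edgeR adjusted p = 0.514). Over its body it had 16.9, 25.4 and 17.4 CPM at 48 h, against 35.7, 41.3 and 39.0 CPM at 6 h (-0.95 ± 0.19, adjusted p = 0.00484). Ser2p over Rfc5 was 9.25, 15.9 and 12.1 CPM at 48 h, against 24.5, 22.4 and 24.4 CPM at 6 h (-0.94 ± 0.20, edgeR adjusted p = 0.0119). Rfc2 fell over its body to 10.7, 13.3 and 10.8 CPM at 48 h, against 14.9, 16.2 and 14.7 CPM at 6 h (-0.39 ± 0.11, edgeR adjusted p = 0.0414), and was not called when any of the 6 libraries other than 48 h replicate 2 was left out. Rfc5 shares its start region with Gm15728, 99 bases away on the opposite strand.

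Start and body were set against each other as the ratio of body to TSS signal in NTD libraries, with limma on log2 of the CPM ratio (0.5 CPM added to each). Of the 43 genes, 2 were called at 48 h against 0 h (3.08% of all transcripts) and 3 at 72 h (2.90%). For Rfc1 the ratio was 1.28, 1.26 and 1.46 at 48 h and 1.26 and 1.78 at 72 h, against 0.836 and 0.939 at 0 h, and rose by 0.58 ± 0.16 and 0.76 ± 0.18 (limma adjusted p = 0.0379 and 0.0134). For Rfc5 it was 0.257, 0.341 and 0.293 at 48 h and 0.253 and 0.350 at 72 h, against 0.485 and 0.543 at 0 h, and fell by 0.80 and 0.79 (limma adjusted p = 0.00390 and 0.0101). Pold2 had 0.190 and 0.244 at 72 h, against 0.136 and 0.116 at 0 h, a rise of 0.78 ± 0.19 (limma adjusted p = 0.0185). No range overlaps, yet leaving out single libraries ended calls for all 3 genes. Without 0 h replicate 4 the values were 0.67 (Rfc1, 48 h), -0.72 (Rfc5, 48 h) and 0.66 (Pold2, 72 h), all uncalled.

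No gene of the set was called for a change of a phosphorylated form relative to total Pol II. In the edgeR test of the interaction between antibody and time, 0 of 43 were called for Ser5p against NTD at the TSS at 48 and 72 h (0.399 and 0.0884% of transcripts) and 0 of 43 for Ser2p against NTD over bodies (0 and 0%). At an unadjusted p under 0.05, 3 and 0 genes were higher for Ser5p (2.14 and 1.06% of all transcripts) and 1 and 0 for Ser2p (2.36 and 1.24%). None was lower, where 5.98 and 4.64% of all transcripts were for Ser5p and 1.91 and 1.50% for Ser2p. DESeq2's size factors in edgeR also gave 0 in each. A p that misses the threshold does not show that the forms moved alike.

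RPA is the trimer that covers single-stranded DNA at the fork, and its large subunit gene Rpa1 had the most early calls. At the TSS (NTD) Rpa1 had 29.0 and 44.0 CPM at 0 h, 80.3 and 70.8 at 2 h, 74.9, 71.7 and 77.9 at 4 h, with 88.5, 69.2 and 78.1 at 6 h. Rpa1 then had 66.4 and 69.1 CPM at 24 h, 38.7, 55.8 and 34.5 at 48 h, with 29.6 and 32.5 at 72 h. The 2 to 24 h libraries all lay above those of 0, 48 and 72 h, and the gene rose by 1.03 ± 0.22, 1.02 ± 0.20, 1.09 ± 0.20 and 0.88 ± 0.22 at 2, 4, 6 and 24 h against 0 h (edgeR adjusted p = 0.0156, 0.00253, 0.000907 and 0.0206). Its promoter, printed above, holds CCAAT on the gene strand once before and once after the start.

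Ser5p at Rpa1 was 87.1, 72.3 and 69.9 CPM at 6 h, against 31.5 and 40.3 CPM at 0 h, and rose by 1.10 ± 0.22 (edgeR adjusted p = 0.0300). Over the body NTD was 100.5, 101 and 92.5 CPM at 6 h, against 50.1 and 51.8 CPM at 0 h (0.94 ± 0.14, edgeR adjusted p = 0.0216). Ser2p over Rpa1 at 24 h was 84.6 and 77.8 CPM, against 47.0 and 44.2 CPM at 0 h (0.83 ± 0.17, adjusted p = 0.0184). At 48 h against 6 h it fell again, by 0.82 at the TSS, 0.78 over the body and 0.61 for Ser2p (edgeR adjusted p = 0.00131, 0.00121 and 0.0173). Without 0 h replicate 1 the TSS rises of Rpa1 were 0.80 at 2 h, 0.77 at 4 h, 0.83 at 6 h and 0.66 at 24 h and no longer called, though each 2 to 24 h library still stood above both 0 h libraries.

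The start of Rpa1 lies 50 bases from that of Smyd4, a gene of the SET and MYND domain family, on the opposite strand. The TSS windows of both therefore hold nearly the same reads. Smyd4 was 86.8, 70.3 and 78.5 CPM at the TSS (NTD) at 6 h, against 29.5 and 43.2 CPM at 0 h. Their bodies were counted apart, but each may hold part of that window. Where a body begins is not given in the sources used here. NTD over the body of Smyd4 was 69.3, 67.1 and 65.0 CPM at 6 h, against 42.7 and 43.1 CPM at 0 h, a rise of 0.65 ± 0.10 (edgeR adjusted p = 0.0270), beside 0.94 ± 0.14 for Rpa1. Both genes of the divergent pair thus rose over their bodies at 6 h. The part of the shared window in these rises and the difference between the genes were not tested.

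**Figure D4:**
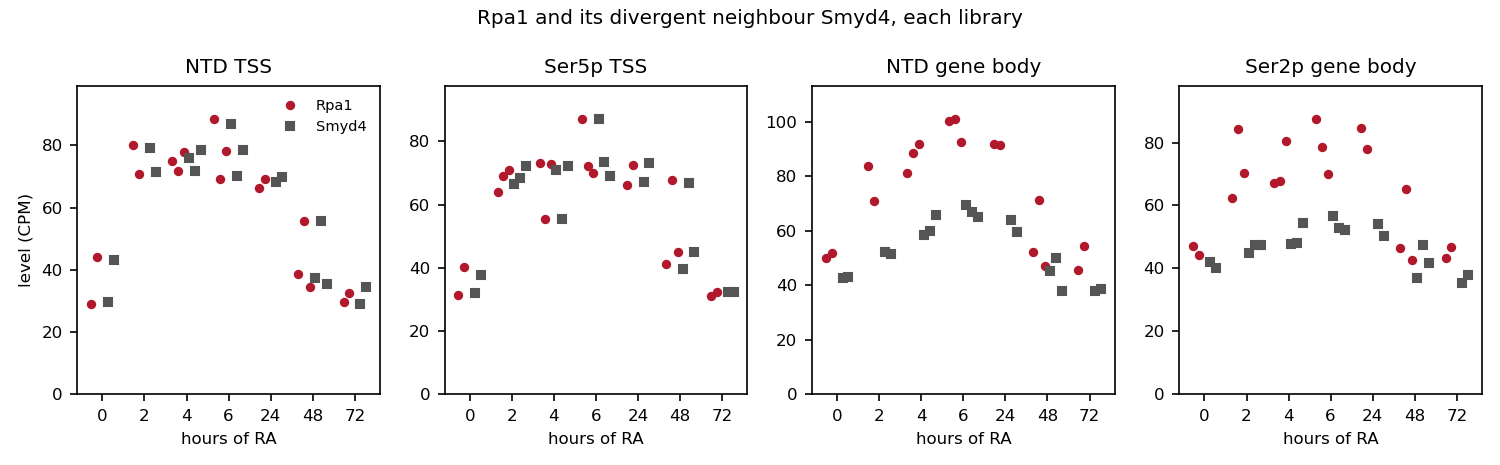
Level in CPM (vertical axes, from 0) of Rpa1 (red circles) and its divergent neighbour Smyd4 (grey squares) in each library against hours of RA, in the 4 tables. At the TSS the symbols of both genes nearly coincide, and over gene bodies (NTD) Rpa1 reaches 92.5 to 101 CPM at 6 h, against 50.1 and 51.8 CPM at 0 h.

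Rpa2, the middle subunit, did not share the early rise and had 41.3, 59.2 and 44.9 CPM at the TSS at 48 h and 38.3 and 50.6 CPM at 72 h, against 69.4 and 90.4 CPM at 0 h and 78.1, 97.2 and 80.7 CPM at 6 h. It fell by 0.79 at 48 h against 6 h and by 0.83 at 72 h against 0 h (edgeR adjusted p = 0.00169 and 0.00749). Neither fall was called with the authors' scale factors. The fall at 72 h was also not called without both 0 h replicate 4 and 72 h replicate 3. Over its body Rpa2 averaged 13.7 ± 4.12 CPM at 48 h and 21.8 ± 3.23 CPM at 6 h (-0.65 ± 0.19, edgeR adjusted p = 0.0451, n = 3 each). Rpa3, the small subunit, was called nowhere, with 20.1 ± 4.16 CPM at 48 h and 21.2 ± 1.30 CPM at 6 h.

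In nucleotide supply, the thymidylate genes fell and the ribonucleotide reductase genes did not pass the test. Tyms, thymidylate synthase, had 50.3 and 60.0 CPM at 0 h, 55.7 and 55.6 at 2 h, 48.9, 61.4 and 63.1 at 4 h, with 52.1, 85.5 and 84.8 at 6 h. Tyms then had 65.1 and 53.4 CPM at 24 h, 38.0, 44.8 and 32.8 at 48 h, with 31.6 and 37.6 at 72 h. Its late libraries lay below all others, and it fell at 48 h against 6 h by 0.92 at the TSS, 0.61 over its body and 0.69 for Ser5p (edgeR adjusted p = 0.000454, 0.0388 and 0.0137). Tk1, thymidine kinase, fell at the TSS to 22.0, 30.1 and 22.4 CPM at 48 h, against 45.1, 50.4 and 35.3 CPM at 6 h (-0.76 ± 0.20, edgeR adjusted p = 0.00688), in a window shared with Afmid, 95 bases away on the opposite strand.

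Rrm2, the regulated subunit of ribonucleotide reductase, had 74.6 and 79.2 CPM at 0 h, 49.1 and 67.6 at 2 h, 47.4, 67.1 and 64.0 at 4 h, with 54.4, 73.3 and 73.2 at 6 h. Rrm2 then had 94.4 and 70.1 CPM at 24 h, 56.6, 72.3 and 60.4 at 48 h, with 71.2 and 92.7 at 72 h. Those values overlap between 6 and 48 h, with a change of -0.08 ± 0.18 (edgeR adjusted p = 0.868). Rrm1, the large subunit, had 44.0, 54.3 and 57.0 CPM at 48 h, against 46.9, 57.5 and 45.7 CPM at 6 h (0.05 ± 0.19, edgeR adjusted p = 0.921).

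The genes for flap removal, ligation and chromatin assembly gave no call at the TSS. Log2 changes at 48 h against 6 h were -0.29 for Fen1, the flap endonuclease, -0.06 for the ligase Lig1, and -0.21 and -0.35 for Chaf1a and Chaf1b, which place new histones behind the fork. Chaf1a had 35.6 and 33.9 CPM of Ser2p at 24 h, against 24.4 and 23.2 CPM at 0 h, and rose by 0.55 ± 0.16 (edgeR adjusted p = 0.0379).

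**Figure D5:**
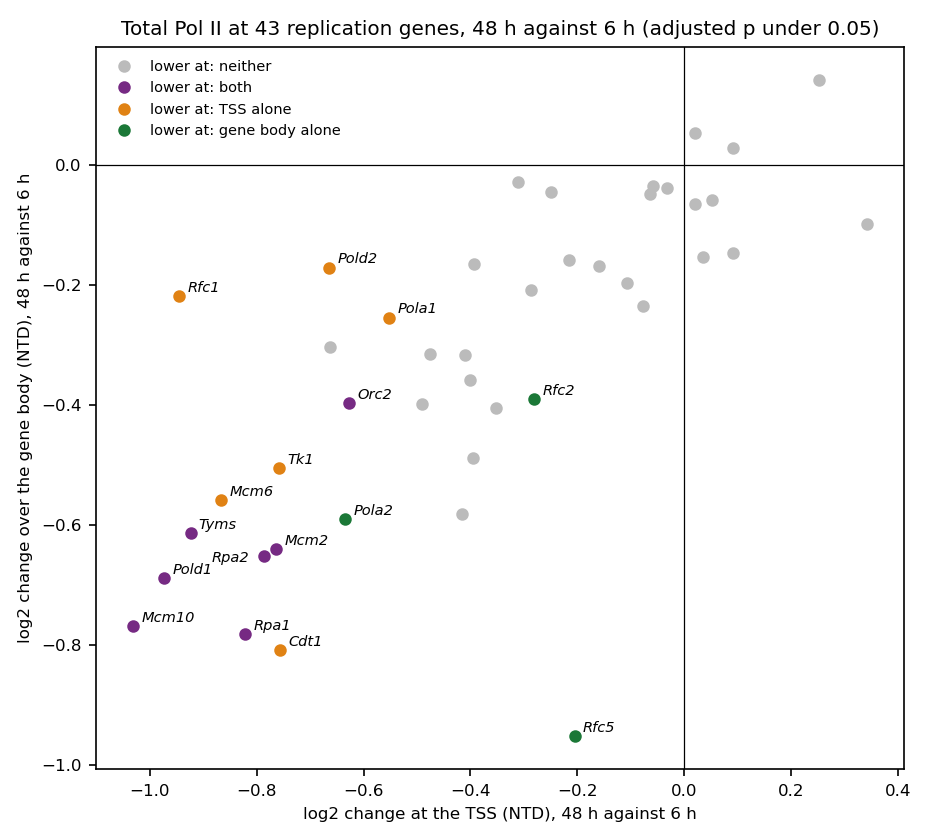
Log2 change of total Pol II at 48 h against 6 h at the TSS (horizontal axis) and over the gene body (vertical axis) for each of the 43 genes, coloured by where its adjusted p was under 0.05. Mcm10 lies at -1.03 and -0.77, Rfc1 at -0.95 and -0.22 and Rfc5 at -0.21 and -0.95.

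Other genes of the pathway and of the cell cycle were counted in the same tables from lists outside the 43. Over all transcripts at 48 h against 6 h (NTD), 6.52% fell and 1148 of 31868 rose at the TSS. Over bodies 6.00% fell and 1200 of 31843 rose. The list counts were not tested against these shares, and single calls in short lists say little. Of 33 other replication genes, 6 fell and none rose at 48 h against 6 h at the TSS (NTD), with a median of -0.22, and 4 fell over bodies. Of 21 genes of G2 and mitosis, 9 fell at the TSS and 5 over bodies and none rose, with medians of -0.52 and -0.35 and all 21 negative in both. Of 13 genes for E2F and pocket proteins, 1 fell at the TSS, with a median of -0.18, and over bodies E2f2 fell and Rb1 rose, with a median of -0.14. None of the 9 housekeeping genes tested at the TSS and none of 10 over bodies was called in either direction, with medians of -0.07 and 0.04. Over the same interval 5 of the 7 stem cell markers fell at the TSS, with a median of -1.14 and all 7 negative. Of 6 primitive endoderm, 5 fibroblast, 3 neural progenitor and 4 trophoblast markers, 1, 0, 1 and 1 rose and 0, 0, 0 and 1 fell. None was at a count of 0 in any group, and their part in the changes of the replication genes was not tested.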

How the data were processed

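Pol II ChIP-seq libraries of mouse E14 cells at 7 times were used, 53 of the 157 samples of the series, grouped by the labels' antibody and hours of RA. The deposited tables hold raw counts per RefSeq transcript, a column for each library, a normalized signal that the authors made from each count with 1 factor per library, and for gene bodies FPKM by the authors. Bowtie2, SAMtools, MACS2 and DESeq2 and the builds mm10 and dm6 are named in the submitters' processing notes. Per the labels' track names, reads were uniquely mapped and cleared of duplicates. For the counting tool and all versions, the entry is: not given in the sources used here. The 14 columns of group means in the deposited tables were not used.

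Counts were fitted per table with edgeR 4.0.16 (quasi-likelihood test, TMM scaling, filterByExpr, Benjamini-Hochberg adjustment over all transcripts tested) in R 4.3.3 with the data.table package (1.17.8), with all times fitted together, so that the times share their estimate of spread. Ratios of body to TSS were tested with limma 3.58.1 on log2 values with 0.5 CPM added, or 0.1 as an alternative, and differences between antibodies as an edgeR interaction. The alternatives were DESeq2 1.42.0, the authors' scale factors, no filter, a replicate block, the transcript with the lowest mean count and leaving out each library, or 0 h replicate 4 and 72 h replicate 3 together. The steps were tested on simulated data. Python 3.11.15 with matplotlib 3.10.9 drew the figures. Transcripts without a symbol (80 of the NTD TSS table, 0.065% of its counts) were kept in the library totals and, where they passed the filter, in the fit.

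All 43 genes could be named. Values of every library were set for Mcm2 to Mcm7, Pcna, Cdc6, Cdt1, Orc1, Rrm2 and Tyms, and for up to 4 falls and 4 rises of called genes per table at 48 and 72 h against 0 h. The genes and lists were chosen with earlier results of these data known.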

Additional observations from a re-analysis of the deposited data

How the results depend on the processing

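Counts below are of the 43 genes called, first as reported and then under each alternative. Counts over all transcripts moved as well, so a moved count is not particular to the 43. For Ser5p at 24 h, 1178 of 32774 transcripts were higher and 1028 lower as reported. With the authors' scale factors 5960 were higher and 324 lower. For Ser2p at 24 h, 2896 of 32123 were higher as reported and 3779 with DESeq2. At the TSS for NTD, the 1 call at 2 h became 2 without a filter and 0 with DESeq2 (0 to 1 without single libraries). The 2 at 4 h became 0 with the authors' scale factors and 1 with DESeq2 (1 to 2 without single libraries). The 1 at 24 h ranged from 0 to 1 without single libraries. The 8 falls at 48 h against 0 h became 1 with the authors' scale factors, 4 with DESeq2, 1 without both 0 h replicate 4 and 72 h replicate 3 and 1 to 7 without single libraries, where 0 to 1 rose. The 5 falls at 72 h became 0 with the authors' factors, 3 with DESeq2, 3 with the lowest-count transcript, 0 without both libraries and 1 to 3 without single libraries. The 1 rise became 0 with the authors' factors, without a filter, with the lowest-count transcript and without both libraries, and 0 to 2 without single libraries. The 13 falls at 48 h against 6 h became 1 with the authors' factors. The 1 call at 72 h against 48 h became 0 with DESeq2 and without both libraries and 0 to 1 without single libraries.

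For Ser5p, no call at 2 or 4 h became 1 each with DESeq2, and the 1 at 6 h became 0 with the authors' factors and 0 to 1 without single libraries. The 1 at 24 h became 13 with the authors' factors, 2 with DESeq2 and 0 to 2 without single libraries. The 1 fall at 48 h and at 72 h became 0 with the authors' factors, DESeq2 and the lowest-count transcript, and 0 to 1 and 0 without single libraries. The 1 rise ranged from 0 to 3 and 0 to 4. The 2 falls at 48 h against 6 h became 0 with the authors' factors, 1 with the lowest-count transcript and 0 to 4 without single libraries. Over NTD bodies, 0 calls at 4 h became 1 with DESeq2, and the 1 at 6 and at 24 h became 0 without both libraries. No fall at 48 h became 3 with DESeq2, 1 with the lowest-count transcript and 0 to 3 without single libraries, and none at 72 h ranged from 0 to 2 in either direction. The 10 falls at 48 h against 6 h became 15 with DESeq2 and 5 to 18 without single libraries, and 0 at 72 h against 48 h ranged from 0 to 2. For Ser2p, 0 at 2, 4 and 6 h became 2, 1 and 1 with DESeq2 (0 to 2 at 2 h without single libraries). The 9 rises at 24 h became 16 with DESeq2 and 0 to 3 without single libraries. The 0 rises at 72 h ranged from 0 to 1. The 3 falls at 48 h against 6 h became 5 with DESeq2 and 0 to 6 without single libraries. Body to TSS ratios gave 0 to 2 calls at 48 h and 0 to 3 at 72 h without single libraries, and Ser5p relative to NTD 0 to 1 at 48 h.

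Deviations from the time means of libraries with the same replicate number had a median correlation of 0.104 at the TSS (NTD, from -0.194 to 0.355), 0.094 for Ser5p (from -0.224), 0.242 over NTD bodies (from -0.491 to 0.677) and 0.08 for Ser2p (from -0.542). Libraries of other numbers had medians of -0.046, -0.031, -0.12 and -0.01. The numbers were not taken to pair the samples, since some same-numbered libraries deviated in opposite ways, though the medians leave room for a shared effect. With the replicate number as a block, which the labels do not tie to a shared culture or day, NTD TSS counts became 2 at 2 h, 0 at 24 h, and 9 falls and 0 rises at 72 h. Ser5p counts under the block became 1 at 2 h, 1 at 4 h, 0 at 24 h, 2 falls and 0 rises at 48 h, 2 falls at 72 h and 12 falls at 48 h against 6 h. NTD body counts under the block became 1 at 4 h, 0 at 24 h, 9 falls at 48 h, 2 at 72 h and 17 at 48 h against 6 h. Ser2p counts became 0 at 24 h and 8 at 48 h against 6 h.

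The log2 change of Orc2 at the TSS (NTD) at 48 h against 6 h went to 0.22 with the lowest-count transcript. That of Mcm3 at 4 h against 0 h ranged from -1.84 to 0.15 without single libraries and was 0.15 without both 0 h replicate 4 and 72 h replicate 3, and at 72 h against 0 h it ranged from -1.33 to 1.19. The causes of these changes were not tested. With 2 or 3 libraries a time, many calls lie near the threshold, and 6 of the 70 calls were kept in every setting tried.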
